A study of Mus musculus with 6 samples.

Results

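The 32 genes described here run the life cycle of the mitochondrion outside its protein folding and respiration. They cover fusion and fission of the network, its transport along microtubules, the shape of the cristae, the removal of damaged organelles by mitophagy, and the upkeep of mitochondrial DNA (mtDNA). They were taken by name from 2 tables of N6-methyladenosine (m6A) peaks in male mouse germ cells. In the table that sets ClpP knockouts against wild type (WT), 22 of the 32 genes carried 39 of 24127 peaks, and in the table that sets ClpX knockouts against WT, 21 carried 35 of 23681 peaks. A peak in both tables was found for 20 genes, in the ClpP table alone for 2 (Bnip3l and Ppargc1a), and in the ClpX table alone for 1 (Opa1). The other 9, which are Fis1, Gdap1, Rhot1, Rhot2, Park2, Bnip3, Vdac1, Vdac2 and Polg2, had no peak in the tables used here, which says nothing of their expression.

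The 6 libraries came from primary male germ cells, titled spermatocytes, at postnatal day 35, with 1 immunoprecipitated (IP) and 1 input library for each of ClpP cKO, ClpX cKO and WT. In both conditional knockouts (cKO) the gene was deleted in male germ cells through Stra8-Cre, a Cre recombinase expressed from a promoter active in germ cells before and at the entry into meiosis. In the mitochondrial matrix, ClpX unfolds proteins and feeds them to the peptidase ClpP. The labels do not give the number of animals behind a library, or a strain.

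Mitochondria fuse through GTPases of the outer and inner membrane and divide through a dynamin that is recruited from the cytosol by adaptors on the outer membrane. A mitochondrion that loses its membrane potential collects the kinase PINK1, which recruits the ubiquitin ligase parkin and marks the organelle for autophagy, while other receptors on the outer membrane bind the autophagy machinery without parkin. In spermatocytes and spermatids mitochondria change their shape and place repeatedly, and in mice fusion is needed for meiosis to proceed. m6A is a methyl mark on adenosines of mRNA that affects splicing, stability and translation, and it is densest around stop codons and in long exons.

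Values below are the authors' own. The fold enrichment is a linear ratio of IP over input, given as 1 value per peak in each table. The log2 fold change is the difference in enrichment between genotypes, read as higher in the knockout where positive. That direction rests on the order of names alone, in which the knockout precedes WT. A peak is called where the authors' adjusted p for that difference was under 0.05. Each group held 1 library, so the call compares libraries, no value has a replicate error, and no test across animals was possible. Values per library were not used here and the read depth is unknown. In bulk cells, a shift in the mix of cell types and a change within cells cannot be told apart. Among marker lists for the cell label, 9 and 8 of 10 spermatocyte genes had a peak in the ClpP and ClpX tables, as did 5 and 6 of 6 spermatid genes, 5 and 5 of 6 Sertoli cell genes, and 2 and 4 of 5 Leydig cell genes. Of 3 genes of germ cells in general, Dazl alone had a peak, in the ClpP table, and a peak does not give a level. Coordinates are on GRCm38 (mm10), and those of a peak found in both tables are the ClpP table's unless ClpX alone is named.

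At 3 of the genes a peak shared by both tables reached the region around an annotated transcription start, for which the RefSeq sequence (GRCm38.p6) could be shown. Each window runs from 250 bases before a start to 50 after it, in the direction of transcription. Capitals mark the bases that lay inside the gene's m6A peak in both tables. They are Twnk (mtDNA helicase, chr19:45005413-45005712, plus strand), whose first peak was called higher in both knockouts, Pld6 (an outer-membrane lipase of mitochondria, chr11:59787173-59787472, minus strand), whose peak was called in opposite directions, and Mtfp1 (an inner-membrane fission protein, chr11:4095382-4095681, minus strand), whose peak was called in neither.
Twnk: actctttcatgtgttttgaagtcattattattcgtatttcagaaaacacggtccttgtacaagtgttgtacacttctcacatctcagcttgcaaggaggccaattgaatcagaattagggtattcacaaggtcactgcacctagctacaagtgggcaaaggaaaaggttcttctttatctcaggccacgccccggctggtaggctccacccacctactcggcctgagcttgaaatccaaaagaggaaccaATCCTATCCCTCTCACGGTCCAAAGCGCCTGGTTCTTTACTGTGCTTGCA
Pld6: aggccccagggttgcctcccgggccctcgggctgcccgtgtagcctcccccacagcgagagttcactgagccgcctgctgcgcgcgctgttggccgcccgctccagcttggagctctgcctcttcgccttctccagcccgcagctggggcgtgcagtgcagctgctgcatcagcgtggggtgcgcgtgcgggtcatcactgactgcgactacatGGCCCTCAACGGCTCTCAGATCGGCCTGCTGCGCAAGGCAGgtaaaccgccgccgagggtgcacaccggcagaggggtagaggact
Mtfp1: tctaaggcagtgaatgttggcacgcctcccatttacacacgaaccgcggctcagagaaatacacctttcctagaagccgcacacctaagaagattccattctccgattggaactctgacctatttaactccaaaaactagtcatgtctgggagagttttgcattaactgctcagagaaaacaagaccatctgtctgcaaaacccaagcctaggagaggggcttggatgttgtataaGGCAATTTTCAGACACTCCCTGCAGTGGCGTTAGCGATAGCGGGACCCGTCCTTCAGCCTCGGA

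The Twnk peak began exactly at the annotated start, so its first 50 bases are those in capitals. The Pld6 window surrounds the downstream one of its RefSeq starts, the peak's upstream block covers this start, and the bases just after the capitals are gtaa, where gt are the letters that open most introns. For Mtfp1, 64 bases lay inside the peak, which began 14 bases before the RefSeq start. GGAC, the commonest core of m6A sites, was searched on the given strand. It occurred 1 time in the capitals of Mtfp1 and in those of neither Twnk nor Pld6, and 18.9% of all 32851 windows hold it in their last 50 bases. A match of these letters is not a mapped site, and the rest of each peak was not searched. Of 38 windows of 26 listed genes in the RefSeq table, 6 held the palindrome GCGCNNGCGC, read on both strands, which the transcription factor NRF1 binds, against 6.23% of all windows. These 6 windows belong to Bnip3, Immt, Opa1, Pink1, Pld6 and Rhot2, and the Pld6 one is that of its other start, not the one printed.

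In ClpP cKO against WT, 5 of the 39 peaks were called higher and 9 lower. Peaks on Bnip3l, Pink1, Immt, Polg and Twnk were higher, and peaks on Mfn2, Pld6, Mief1, Trak1, Chchd3, Vdac3, Tfam and Polg were lower. These were 12.8% and 23.1% of the peaks on these genes, against 6.74% and 12.8% of all peaks tested. In ClpX cKO against WT, 9 of 35 were called higher (25.7%) and 1 lower (2.86%), where 15.1% and 5.0% of all peaks were. The higher ones lay on Mfn2, Pld6, Mff, Mief1, Immt, Pink1, Polg and Twnk, and the lower one on Mfn1. Counted by gene, with a gene taking its peak of smallest p, 5 of 22 were higher and 7 lower for ClpP, where 9.50% and 19.3% of all genes were. For ClpX 8 of 21 were higher and 1 lower, beside 21.7% and 7.58% of all genes.

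The median log2 fold change of the peaks on these genes was 0.11 for ClpP, beside -0.03 over all peaks, and 0.53 for ClpX, beside 0.24 over all peaks. By gene, at the peak of smallest p, the medians were -0.45 for ClpP, beside -0.16 over all genes, and 0.56 for ClpX, beside 0.36, so the ClpP median has no sign that holds for both ways of counting. The ClpX values as a whole thus lay 0.24 above 0 as the authors scaled them, and more so where enrichment was weak. With all peaks split into 5 equal bins of fold enrichment, the median for ClpX was 0.81 in the lowest bin and -0.26 in the highest, while the ClpP medians were 0.17 and -0.17. Of the 9 higher ClpX peaks on these genes, 5 lay in the lowest bin. The share of all higher ClpX peaks in that bin is not given here, so this count has no background. With each bin's own median taken off, which sets a peak against peaks of like enrichment and was added after the data were seen, 4 of these genes' ClpX peaks were called higher and 4 lower. The part of enrichment in these values was not otherwise tested. For ClpX, 4 of 5 Leydig cell markers had a median of 2.05 and 4 of 8 peritubular, endothelial and immune markers one of 2.13, with no peak on Cyp11a1, Acta2, Pecam1, Ptprc or Cd68. For ClpX the 6 spermatid markers had a median of 0.78 and 5 Sertoli cell markers one of 1.08, while 8 spermatocyte markers had one of 0.002. Counted by any called peak, 5 spermatid genes were higher for ClpX and none lower, and 2 spermatocyte genes were higher and 2 lower. Sertoli cell genes had 1 of each for ClpX. The Leydig cell list and the peritubular, endothelial and immune list each had 2 higher and none lower. By the peak of smallest p, 21.7% of all genes were higher for ClpX and 7.58% lower. For ClpP the medians were 0.52 over 2 Leydig cell genes, 1.13 over 3 of the peritubular, endothelial and immune list, 0.29 over 5 spermatid genes, 0.10 over 5 Sertoli cell genes and 0.04 over 9 spermatocyte genes. By any called peak for ClpP, 2 spermatid genes were higher and none lower, and 1 spermatocyte gene was higher and 3 lower. Sertoli cell genes had 1 of each, Leydig cell genes none, and the peritubular, endothelial and immune list 2 higher and none lower. By the peak of smallest p, 9.50% of all genes were higher for ClpP and 19.3% lower. The part of the marker genes in the results was not tested.

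**Figure D1:**
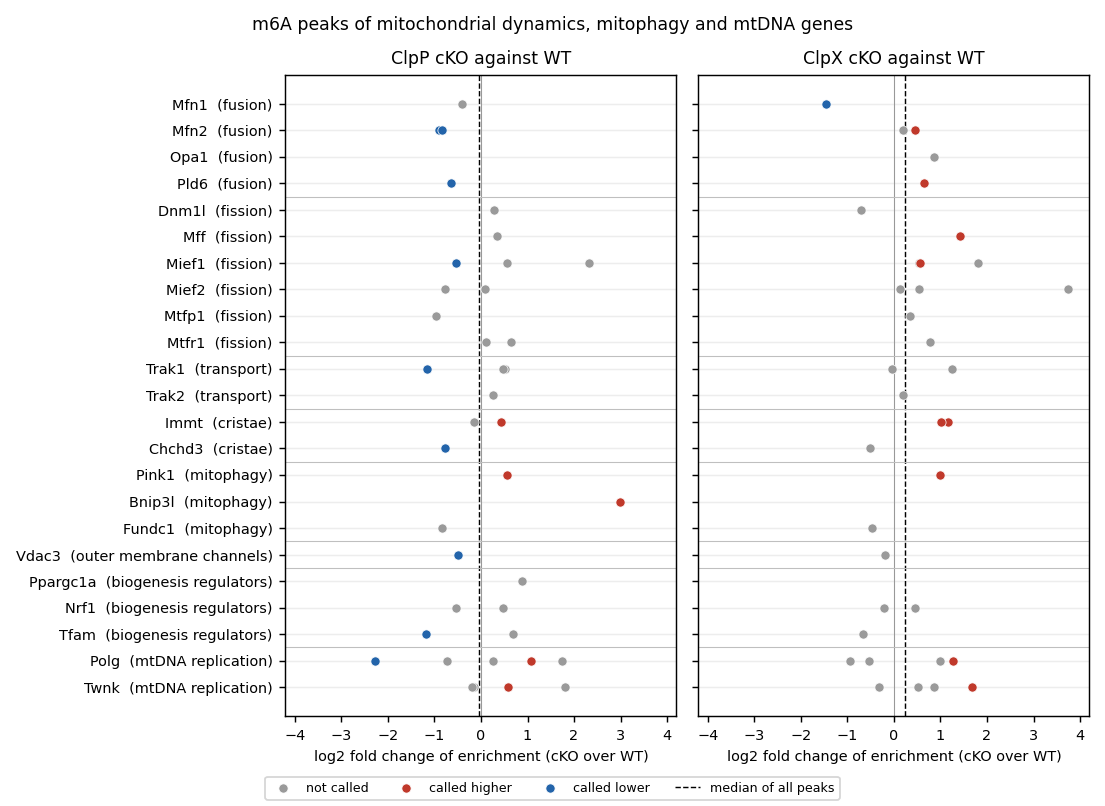
Each point is 1 peak, placed by its log2 fold change of enrichment (cKO over WT, horizontal axis) on the row of its gene, for ClpP cKO (left) and ClpX cKO (right), coloured by the authors' call. Called peaks lie on both sides for ClpP (5 higher, 9 lower) and nearly all to the right for ClpX (9 higher, 1 lower), where the median of all peaks is 0.24.

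**Figure D2:**
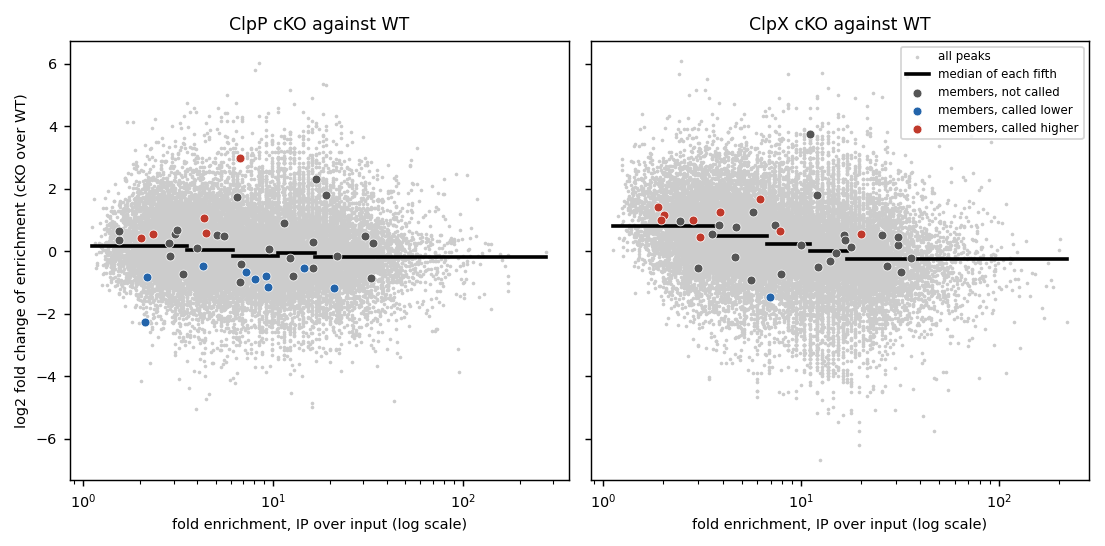
Fold enrichment (IP over input, log axis) is set against the log2 fold change (cKO over WT) for all peaks (grey) and for peaks on the listed genes (coloured by call), with black bars for the median of each of 5 equal bins of enrichment. In the ClpX panel the bars step down along the axis, with 0.81 in the lowest bin and -0.26 in the highest. Of the listed genes' 9 peaks called higher, 5 sit in the lowest bin, and the share for all higher peaks is not given.

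Of the fusion genes, 2 of 3 with a peak were called lower in ClpP cKO, beside 19.3% of all genes. In ClpX cKO 2 of 4 were higher and 1 lower, beside 21.7% and 7.58% of all genes. Counts over so few genes do not set the fusion genes apart from all genes. Mfn2, a GTPase of outer-membrane fusion and of contacts with the endoplasmic reticulum, had 2 peaks near its 3′ end. The upstream one (chr4:147874882-147876971, minus strand) had a log2 fold change of -0.90 in ClpP cKO in the authors' deposited table (adjusted p = 1.26e-30, fold enrichment 8.04). The downstream one (chr4:147874405-147874614) had -0.84 in the authors' deposited table (adjusted p = 1.58e-13, fold enrichment 2.17). Both Mfn2 peaks were thus lower by nearly the same amount in ClpP cKO. For ClpX the same sites had 0.19, not called, and 0.46 (adjusted p = 0.00575) in the authors' deposited table. That second value was no longer called once centred on the median over the table, and it turned to -0.35, called lower, against peaks of like enrichment. Mfn1, the other mitofusin, had 1 peak (chr3:32574328-32577351, plus strand) at the ClpX coordinates, with -1.45 for ClpX in the authors' deposited table, the lowest value of any listed gene in that comparison (adjusted p = 0.0437). Its ClpP value of -0.41 in the authors' deposited table was not called. Opa1, the GTPase of inner-membrane fusion, had 1 peak, in the ClpX table, at 0.85, which was not called in the authors' deposited table (adjusted p = 0.566).

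Pld6 is a phospholipase of the mitochondrial outer membrane that favours fusion and, in the mouse germ line, is needed for piRNA biogenesis. Its peak, whose upstream block is printed above, spanned 1043 bases in 2 blocks for ClpP and 924 for ClpX. Its log2 fold change was -0.65 for ClpP (adjusted p = 2.51e-21) and 0.64 for ClpX (adjusted p = 4.79e-10) in the authors' deposited tables. Its fold enrichment was close in both, at 7.24 and 7.82 in the authors' deposited tables. The ClpX value stayed called higher when centred on the median over the table (0.40) and against peaks of like enrichment (0.42). Pld6 was the only listed gene whose opposite calls both held under these 2 rescalings.

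Of 6 fission genes with a peak, 1 was called lower and none higher for ClpP, where 19.3% and 9.50% of all genes were. For ClpX 2 were higher and none lower, beside 21.7% and 7.58% of all genes. Counts over so few genes do not set the fission genes apart from all genes. The calls lay on Mief1 and Mff. Mief1, an outer-membrane receptor for the fission dynamin, had 3 peaks, and the middle one (chr15:80249363-80250141, plus strand) was called in opposite directions. It had -0.54 for ClpP (adjusted p = 0.000589, fold enrichment 14.6) and 0.56 for ClpX (adjusted p = 0.0107, fold enrichment 20.1) in the authors' deposited tables. The ClpX call was lost when centred on the median over the table, and held against peaks of like enrichment. Its other peaks were not called: the upstream one had 2.32 for ClpP and 1.81 for ClpX, the downstream one 0.55 and 0.54, in the authors' deposited tables. Mff, a tail-anchored receptor for the same dynamin, had 1 peak within 86 bases of its 3′ end, at 1.42 for ClpX (adjusted p = 5.01e-07) and 0.35 for ClpP, not called, in the authors' deposited tables. That peak was among the weakest of the table, with a fold enrichment of 1.88 for ClpX in the authors' deposited table, and it lost its call against peaks of like enrichment.

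No peak was called on the remaining fission genes. Dnm1l, the fission dynamin itself, had 0.29 for ClpP and -0.72 for ClpX at 1 peak near its 3′ end in the authors' deposited tables. Mief2, a paralog of Mief1, had 3.75 at its last ClpX peak (chr11:60732414-60732742, plus strand), the highest value of any listed gene, yet not called in the authors' deposited table (adjusted p = 0.0661). No ClpP peak overlapped that site, and the other Mief2 peaks ran from -0.78 to 0.54 in the authors' deposited tables. Mtfp1 had -0.97 for ClpP and 0.35 for ClpX at the start-site peak printed above, in the authors' deposited tables. Mtfr1, a regulator of fission, had 0.11 and 0.65 at its 2 ClpP peaks and 0.77 at its ClpX peak in the authors' deposited tables.

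Of the 2 transport genes with a peak, Trak1 was called, lower and for ClpP alone, and Trak2 was not. Over all genes 19.3% were lower for ClpP. The Trak proteins link mitochondria, through the Miro GTPases encoded by Rhot1 and Rhot2, to kinesin and dynein. The Trak1 peak nearest the 3′ end (chr9:121472519-121473178, plus strand) had -1.15 for ClpP (adjusted p = 0.00269) and -0.04 for ClpX, not called, in the authors' deposited tables. An upstream Trak1 peak had 0.48 for ClpP and 1.25 for ClpX, and another, listed for ClpP alone, had 0.52, none of them called, in the authors' deposited tables. Trak2 had 1 strongly enriched peak (33.8 for ClpP, 30.8 for ClpX), and its log2 fold change was 0.25 for ClpP and 0.20 for ClpX in the authors' deposited tables.

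The cristae genes Immt and Chchd3, whose products sit in the MICOS complex at cristae junctions, were called in opposite directions for ClpP. Over all genes 9.50% were higher and 19.3% lower for ClpP. Immt had 2 weakly enriched peaks. The upstream one (chr6:71868591-71870085, plus strand) was called higher in both knockouts, with 0.43 for ClpP (adjusted p = 0.0138) and 1.17 for ClpX (adjusted p = 3.09e-05) in the authors' deposited tables. The downstream one ran past the RefSeq end of Immt and had -0.16 for ClpP, not called, and 1.01 for ClpX (adjusted p = 1e-16) in the authors' deposited tables. Their fold enrichments ran from 2.01 to 2.86 in the authors' deposited tables, and all 3 calls were lost against peaks of like enrichment, where the downstream ClpP value was called lower. Chchd3 had 1 peak at its 3′ end (chr6:32792444-32794301, minus strand), with -0.78 for ClpP (adjusted p = 0.00631) and -0.51 for ClpX, not called, in the authors' deposited tables.

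Of 3 mitophagy genes with a peak for ClpP, 2 were called higher and none lower, where 9.50% and 19.3% of all genes were. A count over 3 genes does not set them apart from all genes. Bnip3l, also called NIX, is an outer-membrane receptor that binds the autophagy machinery directly and clears mitochondria from maturing red cells. It had 1 peak (chr14:66985239-66985598, minus strand), at 2.99 in ClpP cKO in the authors' deposited table (adjusted p = 7.76e-06, fold enrichment 6.71). This was the largest called change of either sign among the listed genes, and the gene had no peak in the ClpX table. Pink1, the kinase that starts parkin-dependent mitophagy, was called higher in both, with 0.55 for ClpP (adjusted p = 0.0024) and 1.0 for ClpX (adjusted p = 0.000631) in the authors' deposited tables. Its peak (chr4:138313617-138313943, minus strand) was weakly enriched, at 2.33 and 1.95 in the authors' deposited tables, and the ClpX call was lost against peaks of like enrichment. Fundc1, a receptor of hypoxic mitophagy, had -0.85 for ClpP and -0.47 for ClpX, neither called, at fold enrichments of 32.9 and 27.3 in the authors' deposited tables. Strong enrichment at Fundc1 thus came without a called difference.

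Vdac3, the voltage-dependent anion channel of the outer membrane that mouse sperm need for motility, was the one of its family with a peak. That peak lay 240 bases from the RefSeq 3′ end for ClpP and 210 for ClpX (chr8:22577315-22577554, minus strand). It had -0.49 for ClpP (adjusted p = 0.00129) and -0.19 for ClpX, not called, in the authors' deposited tables. The ClpX value was called lower when centred on the median over the table (-0.43), with an error rebuilt from the uncalled deposited value.

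Of the regulators of mitochondrial biogenesis, 3 had a peak for ClpP and 2 for ClpX. Tfam alone was called, lower and for ClpP alone, where 19.3% of all genes were lower. Tfam packages mtDNA and starts its transcription, and in the mouse testis also has a nuclear isoform. Its main peak (chr10:71228132-71229089, minus strand) had -1.18 for ClpP (adjusted p = 0.000676, fold enrichment 21.0) and -0.66 for ClpX, not called, in the authors' deposited tables. A weaker upstream peak was listed for ClpP, at 0.68, not called in the authors' deposited table. Nrf1, a transcription factor of nuclear genes for mitochondrial proteins, had 2 strongly enriched peaks with values from -0.53 to 0.48 over both authors' deposited tables, none called. Ppargc1a, the coactivator that drives biogenesis, had 0.89 at 1 ClpP peak, not called in the authors' deposited table.

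The mtDNA replication genes Polg and Twnk were the members with most peaks, 5 and 4 for ClpP and 4 and 4 for ClpX. Polg encodes the catalytic subunit of the mtDNA polymerase. Peak 3 from the 5′ end (chr7:79449313-79449672, minus strand) was called higher in both, at 1.07 for ClpP (adjusted p = 4.37e-05) and 1.26 for ClpX (adjusted p = 3.39e-07) in the authors' deposited tables. Peak 1, 14.2% along the gene (chr7:79464746-79464926), had -2.27 for ClpP (adjusted p = 0.000575), the lowest called value of that comparison on these genes, and -0.53 for ClpX, not called, in the authors' deposited tables. Against peaks of like enrichment the ClpX value of that peak was called lower (-1.34), with an error rebuilt from the uncalled deposited value. Peaks listed under Polg were thus called in opposite directions at different places in ClpP cKO. Peak 1 was weakly enriched, at 2.13 for ClpP in the authors' deposited table. The remaining Polg peaks ran from -0.93 to 1.74, none called, in the authors' deposited tables. Downstream Polg peaks, peak 3 among them, lie within the span of Fanci, a DNA repair gene. Peaks 2 and 4 also share bases with Fanci peaks. The gene of these downstream peaks, and so of the higher call at peak 3, is uncertain.

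Twnk unwinds mtDNA ahead of the polymerase. Its first peak, which begins at the start site printed above (chr19:45005663-45005992, plus strand), had 0.59 for ClpP (adjusted p = 0.0257) and 1.68 for ClpX (adjusted p = 2.51e-11) in the authors' deposited tables. It shares bases with a peak of Mrpl43, a mitochondrial ribosomal protein gene, and may belong to either gene. Peak 2 had 1.80 and 0.86, peak 3 -0.16 and -0.31, and peak 4 -0.20 and 0.53 for ClpP and ClpX, none called, in the authors' deposited tables. As deposited, peak 1 was thus the called peak of Twnk in both tables. Against peaks of like enrichment, Twnk peak 2, 16.8% along the gene, was called higher for ClpP too (1.97). With Pld6 and Polg peak 3, Twnk peak 1 kept its call as higher for ClpX under both rescalings, at 1.44 when centred on the median over the table.

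Peaks of both tables were paired where they overlapped by at least 1 base on the same strand, which gave 33 pairs on 20 of the listed genes, and all 33 overlapped by at least 50% of both peaks. The comparisons share the WT libraries, so their values are set side by side without a test. Both calls were higher in 4 pairs, on Immt, Pink1, Polg and Twnk. In 3 pairs, on Mfn2, Pld6 and Mief1, the call was lower for ClpP and higher for ClpX. The call was lower for ClpP alone in 6 pairs (Mfn2, Trak1, Chchd3, Vdac3, Tfam and Polg), higher for ClpX alone in 2 (Mff and Immt) and lower for ClpX alone in 1 (Mfn1). Neither was called in 17 pairs. The share of each kind over all 18709 pairs is not given here, so these counts are read without a background. A call in 1 comparison and not in the other does not show that they differ.

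**Figure D3:**
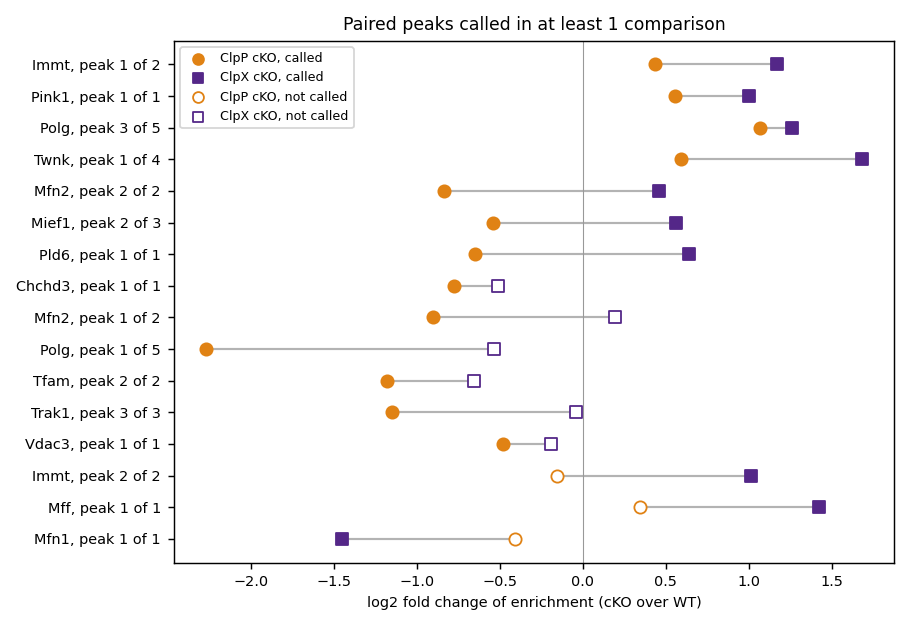
The 16 paired peaks called in at least 1 comparison are shown with their log2 fold change (cKO over WT, horizontal axis) for ClpP cKO (circle) and ClpX cKO (square), filled where called. Polg, Twnk, Pink1 and Immt have both symbols filled on the right, and Mfn2, Mief1 and Pld6 have filled symbols on opposite sides of 0.

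Features that the choice of genes did not use are given as a description, with no test. The peaks on these genes were less enriched in the middle of their range than all peaks and lay slightly nearer the 3′ end. Their median fold enrichment was 6.74 for ClpP and 7.82 for ClpX, beside 8.23 and 8.90 over all peaks. Their blocks covered a median of 360 bases in both tables, beside 301 and 300. More than 1 block, that is a peak spanning a splice junction, was seen in 30.8% and 34.3%, beside 29.7% and 27.5%. Peak midpoints lay at a median of 87.8% and 86.6% of the gene span from the 5′ end, beside 82.7% and 81.2%, and 30.8% and 31.4% ended within 1000 bases of the annotated 3′ end, beside 32.6% and 31.2%. Mtfp1, Mtfr1 and Twnk had peaks in the first 5 percent of the gene. Fold enrichment varied widely among the genes, from 1.54 at Mff to 33.8 at Trak2 for ClpP and from 1.88 at Mff to 35.9 at Nrf1 for ClpX. On these genes, ClpX peaks called higher had a median fold enrichment of 3.06 and those not called 12. For ClpP the peaks called higher had 4.32, those called lower 8.04 and those not called 6.81. The same medians by call over all peaks are not given here.

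**Figure D4:**
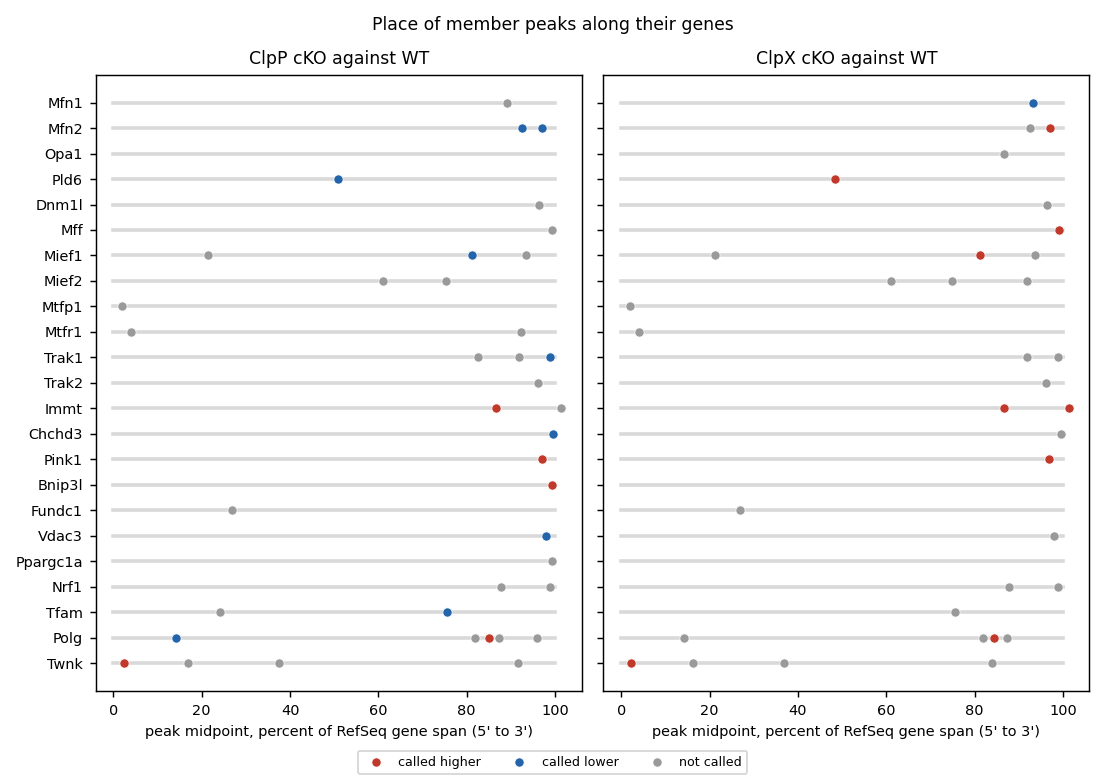
Each point is the midpoint of 1 peak, as a percentage of the RefSeq gene span from 5′ to 3′ (horizontal axis), on the row of its gene, for ClpP cKO (left) and ClpX cKO (right), coloured by the authors' call. Most points lie to the right (medians 87.8% and 86.6%), and Polg has a lower call near its 5′ end and a higher call at 85% in the ClpP panel.

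A wider list of 89 other genes of the same processes was read in the same way, and 71 had a peak in each table. For ClpP 7 were called higher and 19 lower (9.86% and 26.8%), and for ClpX 21 higher and 6 lower (29.6% and 8.45%). Over all genes the shares were 9.50% and 19.3% for ClpP and 21.7% and 7.58% for ClpX, so the counts higher for ClpP and lower for ClpX lay near the background. Fusion genes and their regulators had 0 higher and 5 lower of 11 for ClpP, and 3 higher and 0 lower of 11 for ClpX, the last count being near the 21.7% of all genes called higher. March5 and Mul1, ubiquitin ligases of the outer membrane, had -1.2 (adjusted p = 3.16e-11) and -0.74 (adjusted p = 3.09e-10) for ClpP in the authors' deposited table. The prohibitin gene Phb2 had -1.29 and the DNA ligase gene Lig3 -0.60 for ClpP in the authors' deposited table. At the gene's peak of highest fold enrichment in the authors' deposited table, Mul1 had -0.28, not called, and Lig3 had 0.58, while March5 and Phb2 kept their values. Called higher for ClpP were the autophagy receptor Tax1bp1 at 1.46, the endosomal GTPase Rab7 at 1.35, the deubiquitinase Usp8 at 0.87 and the primase Primpol at 2.04, the last sharing bases with a peak of Cenpu, in the authors' deposited table. Usp8 had 0.30, still called, and Primpol 1.58, not called, at the peak of highest fold enrichment in the authors' deposited table.

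Mitophagy genes of the wider list had 3 higher and 3 lower of 15 for ClpP, where 9.50% and 19.3% of all genes were. For ClpX they had 9 higher and 1 lower of 15, where 21.7% and 7.58% of all genes were. Of these 9 peaks, 6 lay in the lowest bin of fold enrichment, whose median over all peaks was 0.81. The share of all higher ClpX peaks in that bin is again not given. For ClpX the top-ranked increases were Rab7 at 2.95 (adjusted p = 5.01e-36), the autophagy receptor Sqstm1 at 1.56, the import receptor Tomm22 at 1.48 and Msto1, a gene of mitochondrial distribution, at 1.69, in the authors' deposited table. The Tomm22 and Msto1 peaks, with fold enrichments of 2.67 and 2.88 in the authors' deposited table, lay in that lowest bin too. The Sqstm1 and Msto1 peaks share bases with peaks of Mrnip and Gon4l. Called lower for ClpX were the transcription factor Yy1 at -1.10, Mterf4, a factor of mitochondrial ribosome assembly, at -1.28, Lig3 at -0.51 and the lipid transfer gene Vps13d at -0.94, in the authors' deposited table. Vps13d had -0.21, not called, at its peak of highest fold enrichment in the authors' deposited table. Genes of mtDNA maintenance had 1 higher and 7 lower of 21 for ClpP and 2 of each of 23 for ClpX. Cristae genes had 1 of each of 4 for ClpP and 2 higher of 4 for ClpX, fission genes 2 higher and 1 lower of 6 in both, and biogenesis genes 0 higher and 2 lower of 8 for ClpP and 3 higher and 2 lower of 7 for ClpX. Transport genes had no call in either comparison. Over all genes, 9.50% were higher and 19.3% lower for ClpP, and 21.7% and 7.58% for ClpX. The counts lower for mtDNA genes in ClpX cKO and for biogenesis genes in ClpP cKO lay near these shares.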

How the data were processed

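m6A was measured in 6 libraries, 1 per group by title, and was used through 2 tables of comparisons that the authors deposited, each resting on 4 libraries. Per the file headers, a line holds 1 peak, the blocks it covers, and its p-value. Log10 p-values, plain and adjusted, were deposited too and are treated as scores. Enrichment was deposited as a linear ratio (fold enrichment). The difference between genotypes was deposited as a log2 fold change. Per the submitters' processing notes the build is GRCm38 (mm10). The aligner, peak caller, strand setting and depth scaling: not given in the sources used here. Every peak passed at an adjusted p of 0.0427 or less. Deposited adjusted p-values lay within 0.05 (log10) of a Benjamini-Hochberg adjustment over the table for 99.38% (ClpP) and 99.29% (ClpX) of peaks.

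Peaks were matched to genes by the tables' own names, paired between tables with bedtools 2.31.1, and placed on RefSeq spans of the same build, which matched all 32 genes. For rescaling, each peak's error was taken from its p, read as two-sided, and its log2 fold change, and p-values were adjusted anew over the table. Whether the deposited p-values have the form this step needs was not tested, and every rescaled call rests on it. In the wider list, Ppargc1b for ClpP and Armcx3 for ClpX had a log2 fold change of 0.0. Their deposited adjusted p-values for the difference were 0.773 and 0.731. Python 3.11.15, pandas 2.3.3 and scipy 1.17.1 were used. Every listed gene with a peak is named, and of the wider list up to 4 called genes per direction and comparison with the smallest adjusted p. Genes and lists were chosen with earlier results of these data known. Peaks were not assigned to coding sequence or untranslated parts.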

Additional observations from a re-analysis of the deposited data

Results flagged for a closer look

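The paired peaks on 3 genes were called lower in ClpP cKO and higher in ClpX cKO in the authors' deposited tables. The log2 fold changes were -0.84 and 0.46 for the downstream Mfn2 peak, -0.65 and 0.64 for Pld6, and -0.54 and 0.56 for the middle Mief1 peak, ClpP first. The ClpX call of Mfn2 was lost when centred on the median over the table and was lower, at -0.35, against peaks of like enrichment. That of Mief1 was lost in the first case and held in the second, and Pld6 kept both calls in both. The difference between the knockouts was not tested, since each group held 1 library and both comparisons used the same WT libraries. Across the 33 pairs, no pair was called higher for ClpP and lower for ClpX, but only 1 listed peak was called lower for ClpX at all. The absence of such a pair thus carries little weight. The share of all pairs with either pattern is not given here.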

How the results depend on the processing

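No paired analysis was possible because each group held 1 library. Counts of peaks called higher for ClpP were 3 at an adjusted p under 0.01 and 2 when a log2 change of 1 or more in size was required, against 5 as reported, and those called lower were 3 at that size, against 9. For ClpX, peaks called lower were 0 at an adjusted p under 0.01 and 4 with either the median of all peaks or the median of peaks of like enrichment subtracted, against 1, and the second of these left 4 called higher, against 9. Counted by gene, those called higher were 2 (ClpP) and 5 (ClpX) with the peak of highest fold enrichment in place of the peak of smallest p, and 3 for ClpP at an adjusted p under 0.01, where genes lower for ClpX came to 0. The wider list then had 10 lower for ClpP and 12 higher for ClpX with the peak of highest fold enrichment, and Lig3 turned to 0.58 for ClpP. With the median of all peaks subtracted, 3 uncalled ClpX values changed sign, to -0.048 at the upstream Mfn2 peak, -0.10 at the first Mief2 peak and -0.038 at Trak2, 2 calls were lost (Mfn2, Mief1) and 3 were gained (Trak1, Chchd3, Vdac3). The Trak1 gain rests on a deposited value of -0.0445, and an error rebuilt from a value so near 0 comes out small. Its move to -0.28 is therefore not a reliable call. The cause of the other shifts was not tested. The ClpP median of 0.11 over peaks became -0.45 over each gene's peak of smallest p. It was -0.01 over gene means and -0.16 over each gene's peak of highest fold enrichment, so its sign depends on that choice. The ClpX median stayed above 0. It was 0.56 over each gene's peak of smallest p and between 0.19 and 0.49 under its 6 other alternatives. Leaving out peaks that share bases with another gene's peak, or that have a fold enrichment under 2, moved no count of called peaks by more than 1.5 times. Without replicates no library could be left out.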
